A study of Mus musculus with 42 samples.

Results

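Untreated mouse germline cell-derived pluripotent stem cells (GPSCs) were compared with untreated mouse embryonic stem (ES) cells, both sampled at day 0, before any differentiation culture. The comparison used 6 of the study's 42 arrays, picked by their titles: 2 arrays of GPSC-A (Lot A), 2 of GPSC-B (Lot B) and 2 of ES cells. The other arrays held the same 3 cell sources after 2, 7, 14, 21 and 28 days as embryoid bodies in a hepatic differentiation cocktail, and primary hepatocytes of E16 and PN1 mice. Here the later days served as a second look at genes that differed at day 0. The labels give GPSCs and ES cells no genotype, strain, sex, passage or age, and name the growth conditions only as standard. They do not say whether the 2 arrays of a group came from separate cultures, so the spread within a group may be technical. The p-values rest only on that spread, estimated over all 42 arrays in 20 groups and not over the 6 untreated arrays alone. With a single ES source, a difference due to germline origin cannot be told apart from any other difference between this ES source and these lots.

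Mouse ES cells come from the inner cell mass of the blastocyst. A core of Oct4 (gene Pou5f1), Sox2 and Nanog maintains pluripotency, and further factors, among them Klf4, Tfcp2l1, Esrrb, Prdm14 and Nr5a2, holds the naive, blastocyst-like state under leukaemia inhibitory factor (LIF) and Stat3. GPSCs are usually obtained from cultured germline stem cells of the testis. Germ cells erase their parental imprints and set new ones according to sex, so genes expressed from a single parental allele are of interest in cells of germline origin.

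Levels are normalised log2 signals, and differences are GPSC minus ES on that log2 scale with the standard error (SE) of the fit. Each of 8546 genes was represented by its brightest probe. A gene was called when the Benjamini-Hochberg adjusted p of a limma model was under 0.05, the change was at least 2-fold, and both lots moved the same way. Arrays detected 10792 to 13430 probes in GPSCs, and 15123 and 11179 in the ES arrays. Across genes, GPSC and ES arrays correlated at 0.918 to 0.958, arrays of one group at 0.944 to 0.964 and arrays of different lots at 0.938 to 0.984.

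Both kinds of cell carried the markers of pluripotent cells: all 7 of that list were detected on all 6 arrays. Pou5f1 stood at 14.19, 13.77, 13.91 and 13.69 in the GPSC-A and GPSC-B arrays, against 14.03 and 14.11 in ES, and the ranges overlapped. Its difference was -0.18 ± 0.44 (95% interval -1.08 to 0.72, adjusted p = 0.904). Sox2 differed by -0.54 ± 0.43 (adjusted p = 0.607) and Nanog by -0.38 ± 0.44 (adjusted p = 0.759), so neither was called. Their intervals, -1.42 to 0.35 and -1.28 to 0.52, leave room for falls of 2-fold.

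Of 8 germ cell and spermatogonial markers, only the helicase gene Ddx4 was detected on all 6 arrays, at 6.85 to 7.46 in GPSCs and 6.95 to 6.97 in ES cells. Dazl, Zbtb16, Gfra1, Stra8 and Sycp3 were detected on none. All 4 hepatocyte markers were undetected as well. Y-linked genes gave no information: none of their 14 probes was detected on 2 or more untreated arrays, nor on more than 2 of the 42 arrays.

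In all, 180 genes rose and 188 fell in GPSCs, which is 2.11% and 2.2% of those tested (4.31% together, with 1374 genes under an unadjusted p of 0.05). The median change over all genes was -0.01. Fitted changes of called genes reached 4.49 upward (Thumpd1) and -4.02 downward (Aurkc). The GPSC and ES arrays did not overlap in 170 of the 180 rises and 185 of the 188 falls, against 8.92% of all genes that lay higher and 11.4% that lay lower without overlap (20.3% together). The same arrays chose the called genes, so their lack of overlap is no separate support for the calls. Fitting only the 6 untreated arrays left 121 calls, all among the 368. The authors' processed values gave 183 calls, signals without background correction 165, median scaling 133, and probes detected on all 6 arrays 164.

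**Figure D1:**
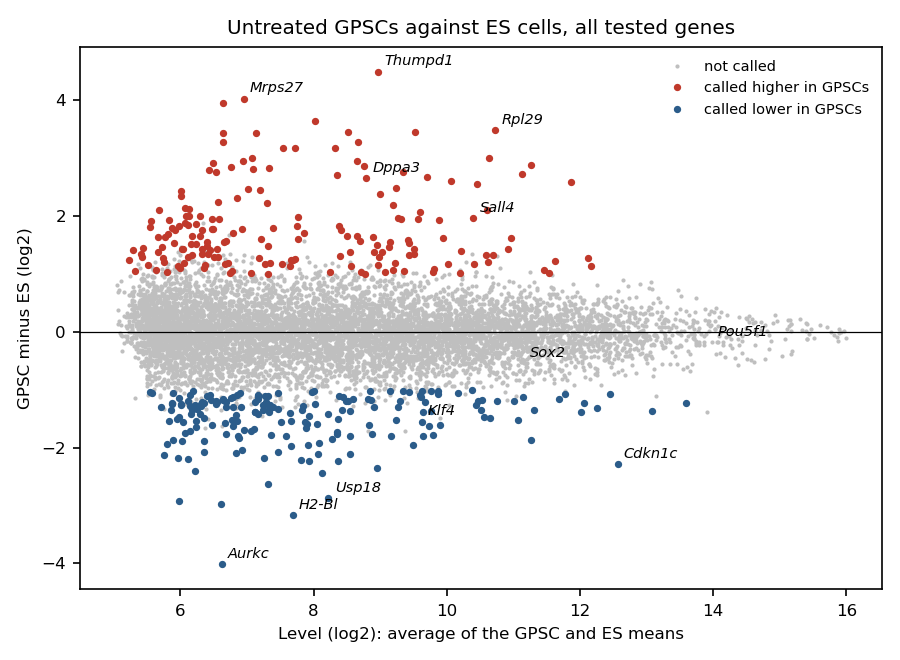
Difference between untreated GPSCs and ES cells (vertical axis, log2) against the average level (horizontal axis, log2) for 8546 genes, 1 point per gene. The 180 called higher are red, the 188 called lower are blue, and genes not called are grey; Thumpd1 tops the plot at 4.49 and Aurkc, undetected in GPSCs, lies lowest at a fitted -4.02.

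The largest rise was in Thumpd1, which encodes a partner of the tRNA and rRNA cytidine acetyltransferase Nat10. It measured 11.16, 11.18, 10.996 and 11.52 in the GPSC-A and GPSC-B arrays, against 7.03 and 6.404 in ES. The GPSC arrays lay close together and far above both ES arrays, with a difference of 4.49 ± 0.21 (adjusted p = 8.17e-15). Mrps27, a protein of the mitochondrial ribosome, stood at 9.02, 9.11, 9.17 and 8.56 in GPSCs and was undetected on both ES arrays, which makes it at least 8.88-fold higher (adjusted p = 2.36e-11). Rpl29, of the cytosolic ribosome, averaged 12.47 ± 0.89 in GPSCs and 8.98 ± 0.48 in ES cells (SD, n = 4 and 2), a rise of 3.49 ± 0.31 that its second probe showed too, at 3.28. Mrpl48, another mitochondrial ribosomal protein, rose by 2.96 ± 0.25, and Tomm22, a receptor of the mitochondrial import pore, by 3.18 ± 0.28.

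Of 29 genes in a list of cytosolic ribosomal proteins none was called, with a median of 0.22 and 25 of them above 0. That list holds neither Rpl29 nor Rpl13a, another protein of the cytosolic ribosome, which rose by 1.32 ± 0.35 (adjusted p = 0.0197) and was picked out after its value was seen. None of 31 oxidative phosphorylation genes was called, with a median of 0.14.

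The remaining rises of the largest size covered unrelated functions. Rae1, an mRNA export factor, measured 12.19, 12.04, 12.13 and 12.22 in GPSCs, against 8.999 and 9.27 in ES cells. Strap, which takes part in assembly of the SMN complex, measured 12.75, 12.57, 12.73 and 12.81 in GPSCs, against 9.99 and 9.66 in ES cells. In both genes the GPSC arrays spanned a far narrower range than the gap to ES, and the differences were 3.01 ± 0.19 (adjusted p = 4.62e-12) and 2.89 ± 0.21 (adjusted p = 7.83e-11). Klhl21, an adaptor of a cullin ubiquitin ligase, rose by 3.64 ± 0.43, and the transcription factor Csrnp1 by 3.45 ± 0.35. Xbp1, a transcription factor of the unfolded protein response, rose by 2.61 ± 0.29 (adjusted p = 2.66e-07), and Atf4, which drives the response to amino acid shortage, was undetected in ES cells and at least 2.27-fold higher in GPSCs (adjusted p = 0.0175). The call of Atf4 was lost without either ES array or without the second array of GPSC-A or of GPSC-B.

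**Figure D2:**
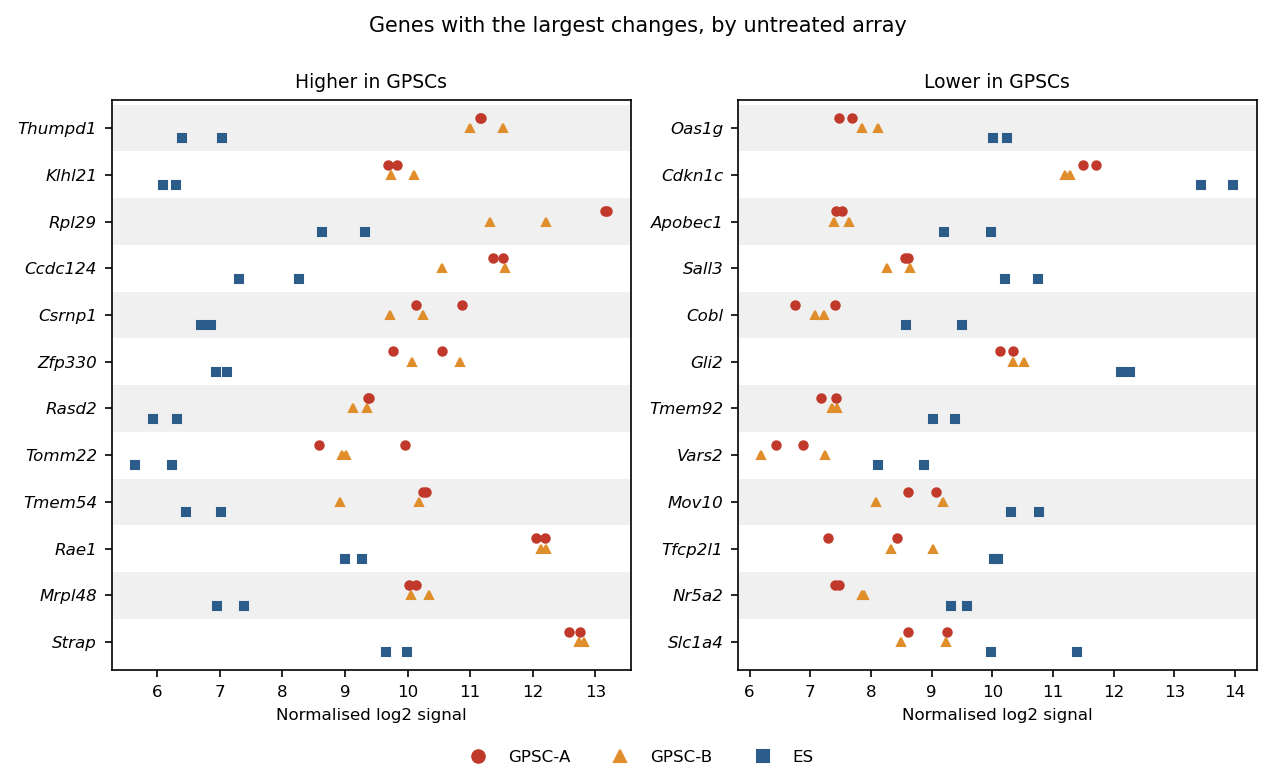
Normalised log2 signal on each untreated array (horizontal axis) for the 12 largest rises (left) and the 12 largest falls (right) among called genes detected on all 6 arrays. Circles are GPSC-A, triangles GPSC-B and squares ES, 2 arrays each; in every gene shown the GPSC arrays lie to one side of both ES arrays.

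The rises included 16 of the 156 tested genes named Zfp followed by a number, mostly zinc finger proteins of the kind that bind DNA, and the falls 1, Zfp42; this grouping was made after the values were seen. Of the 16, 13 were undetected on both ES arrays by the probe used. That probe passed the detection filter through the GPSC arrays alone, where it is high, so their number says nothing about the family. Among genes detected on all 6 arrays, Zfp genes were 3 of 94 rises (3.19%) and 95 of 6172 genes tested (1.54%). Zfp87 stood at 8.27, 8.52, 8.498 and 9.03 in GPSCs and was undetected in ES cells, at least 6.80-fold higher. Zfp869 was likewise undetected in ES cells on its brightest probe and at least 5.81-fold higher, and Zfp940 at least 4.03-fold higher. The other detected probe of Zfp869 gave 0.51 and was not called. That probe was detected on 4 arrays, the first ES array among them. Zfp330, a nucleolar protein, was detected on all arrays at 10.31 ± 0.48 in GPSCs and 7.04 ± 0.13 in ES cells (SD, n = 4 and 2), and its second probe gave 4.26 beside 3.27.

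The brightest probe and the other probes of a gene often differed. Among the rises, 59 genes had another detected probe: in 13 of them it was called higher too, in 46 none was called, and in none was one called lower. The median of these 74 other probes was 0.52, against 1.54 for the chosen probes. Among the falls, 42 genes had another probe, of which 15 genes had one called lower and none had one called higher, with medians of -0.94 for the other probes and -1.503 for the chosen ones. Kdm5b, a histone H3K4 demethylase, rose by 2.71 ± 0.25 on its brightest probe, while its other probes gave -0.19 and 0.17. Vps35, of the retromer, gave 2.73 and -0.40. Cyb5a, cytochrome b5, was undetected in ES cells and at least 6.06-fold higher on its brightest probe, while its other probe gave -0.13. For such genes the array shows a change of the signal at a single probe, and whether it reflects the whole transcript was not tested. Nnt, the mitochondrial transhydrogenase, whose loss from a common laboratory strain is well known, was undetected in ES cells on its brightest probe and at least 2.58-fold higher there. Its other probe gave 0.81 and was not called. That probe was detected on 4 arrays, the first ES array among them. The labels give no strain, and a part of strain was not tested. Most rises (121 of 180) and falls (146 of 188) rested on a single detected probe.

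Naive pluripotency genes mostly stood lower in GPSCs. Of 22 tested, 7 fell and 2 rose, 18 lay below 0 and the median was -0.51; over all genes 2.2% fell, 2.11% rose and the median was -0.01. Tcl1, a coactivator of Akt kinase, measured 7.96 and 7.18 on the GPSC-B arrays, 6.69 and 6.18 on those of GPSC-A, against 8.90 and 9.33 in ES cells. All GPSC arrays were below both ES arrays, the GPSC-A arrays most so, and the difference was -2.12 ± 0.31 (adjusted p = 2.61e-05). Nr5a2, a nuclear receptor able to activate Pou5f1, measured 7.40, 7.47, 7.86 and 7.89 in GPSCs, against 9.57 and 9.32 in ES cells. That is a fall of 1.79 (SE 0.34, adjusted p = 0.000952), with tight arrays on both sides. The other probe of Nr5a2, detected on 6 arrays, gave -0.55 and was not called.

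Tfcp2l1, a target of LIF and Stat3, averaged 8.27 ± 0.71 in GPSCs and 10.06 ± 0.05 in ES cells (SD, n = 4 and 2), a difference of -1.80 ± 0.49. Klf4 differed by -1.55 ± 0.41, Klf5 by -1.22 ± 0.33, Prdm14 by -1.59 ± 0.32 and Zfp42 (Rex1) by -1.13 ± 0.34, all called. Esrrb, at 12.90 to 13.66 in GPSCs against 14.49 and 14.71 in ES cells, had a difference of similar size, -1.38 ± 0.49, that was not called (adjusted p = 0.109). The LIF receptor gene Lifr also fell, by 1.71 (SE 0.44), and 4 of 15 genes of the LIF and Stat3 list fell in all (Klf4, Klf5, Tfcp2l1 and Lifr), while Stat3 itself was at -0.55 (adjusted p = 0.25) and Socs3 at -0.22. The number of naive genes called lower depended on single arrays: it was 2 without the first ES array, 3 without the second, 4 without the second GPSC-A or the first GPSC-B array, and 2 with median scaling or with the untreated arrays alone. Tfcp2l1, Klf4, Klf5 and Zfp42 each lost the call without either ES array. Leaving out a GPSC array also ended it for Tfcp2l1 (the first of either lot), Klf4 (the second of either lot), Klf5 (the second GPSC-A or first GPSC-B array) and Zfp42 (any but the second GPSC-B array). Lifr was not called without the first ES or the second GPSC-A array. Of the LIF and Stat3 list 0 genes were called without the first ES array, with median scaling or with the untreated arrays alone, 1 without the second ES or the second GPSC-A array and 2 without the first GPSC-B array. Nr5a2 was called under each of 15 alternatives, and Tcl1 under the 14 in which it was tested. None of these alternatives used the other probe of Nr5a2.

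The 2 rises were Dppa3 and Manba. Dppa3 (Stella), which protects the methylation of imprinted genes in the early embryo and marks primordial germ cells, measured 9.91, 10.45, 10.24 and 9.85 in GPSCs, against 7.24 and 7.68 in ES cells. Every GPSC array exceeded both ES arrays by more than 2 log2 units, and the difference was 2.65 ± 0.35 (adjusted p = 5.1e-06). Manba, lysosomal beta-mannosidase, rose by 2.48 ± 0.30 on its brightest probe and 0.22 on the other. Among 14 genes of general pluripotency only Sall4, a zinc finger partner of Oct4, was called, at 11.38 ± 0.46 in GPSCs and 9.42 ± 0.49 in ES cells (SD, n = 4 and 2). Its other probe gave 0.24, and the call was lost without the second ES array and with median scaling.

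Day 2 of embryoid body culture gave a different picture for the naive genes. The list median was 1.03 at day 2, 21 of 22 genes were above 0, and 9 were called higher in GPSCs, where 3.67% of all genes were. All 7 genes that were lower in untreated GPSCs lay above 0 at day 2. Tfcp2l1 averaged 8.27 in untreated GPSCs and 10.06 in untreated ES cells, then 7.997 ± 0.67 in GPSCs and 5.63 ± 1.37 in ES cells at day 2 (SD, n = 4 and 2). Tcl1 averaged 7.00 in untreated GPSCs and 9.12 in untreated ES cells, then 7.74 ± 0.19 in GPSCs and 5.80 ± 1.04 in ES cells at day 2. For both genes the ES mean was lower at day 2 than untreated by more than 3 log2 units, and the GPSC mean moved by less than 1; each was detected on 1 of the 2 ES arrays of day 2. The difference between the untreated and the day 2 contrast was itself called in 10 of the 22 genes, all in the same direction, where 1.04% of all genes were (1.17% in either direction). It was -4.16 ± 0.69 for Tfcp2l1 (adjusted p = 0.000961), -4.05 ± 0.44 for Tcl1 (adjusted p = 4.76e-06) and -3.08 ± 0.45 for Prdm14 (adjusted p = 0.000223). The untreated arrays enter this difference. Dppa3 and Manba, which rose in untreated GPSCs, were higher at day 2 as well, by 3.85 and 3.68. Dppa3 and Prdm14, too, were each detected on 1 of the 2 ES arrays of day 2.

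**Figure D3:**
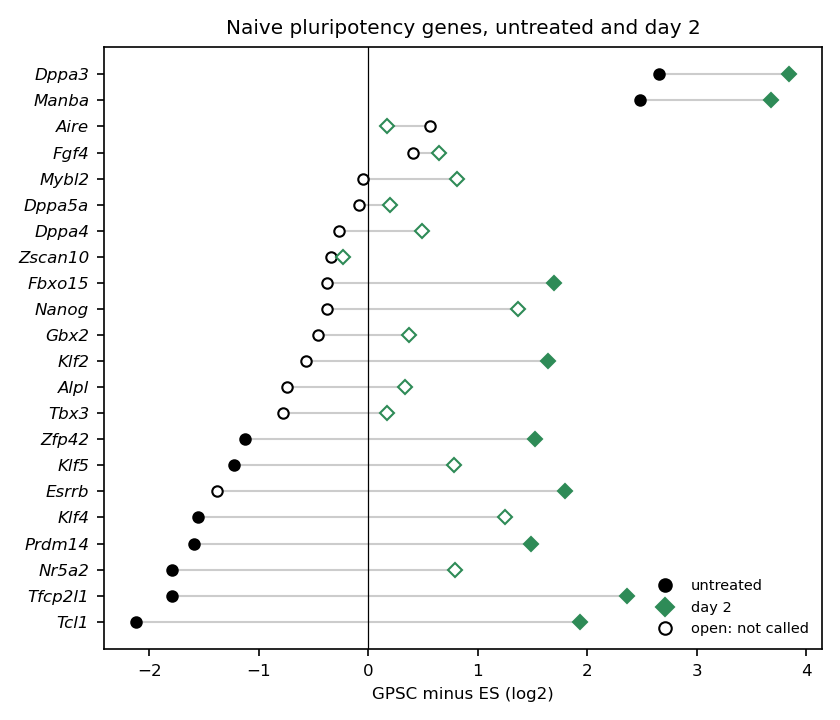
Difference between GPSCs and ES cells (horizontal axis, log2) for the 22 naive pluripotency genes in untreated cells (black circles) and at day 2 (green diamonds); filled symbols are called and open ones are not. Of the 22 genes, 18 lie below 0 in untreated cells and 21 lie above 0 at day 2.

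Interferon-response genes also held falls. Genes induced by interferon, such as Isg15, Ifit3 and the Oas family, carry interferon-stimulated response elements upstream; pluripotent cells are known for a weak interferon response. Promoters are shown because most called members found in the promoter table hold the core of that element. The core searched for was GAAA, any 2 bases, and GAAA again, on either strand (TTTC, any 2 bases, and TTTC), with overlapping matches counted, in the 300 bases from 250 before to 50 after each RefSeq start (GRCm38.p6). Of the 7 called genes, 5 had a promoter in the table and 4 of these, Gbp2, Ifit3, Isg15 and Oas1g, held the core. So did 5 of 14 members that were not called, and 3.99% of all 27025 genes (3.44% of all 32851 promoters). Irf9 had no match in this window. Capitals mark the core; in Isg15 its 3 matches run into each other.
Isg15 promoter, chr4:156200769-156201068, minus strand: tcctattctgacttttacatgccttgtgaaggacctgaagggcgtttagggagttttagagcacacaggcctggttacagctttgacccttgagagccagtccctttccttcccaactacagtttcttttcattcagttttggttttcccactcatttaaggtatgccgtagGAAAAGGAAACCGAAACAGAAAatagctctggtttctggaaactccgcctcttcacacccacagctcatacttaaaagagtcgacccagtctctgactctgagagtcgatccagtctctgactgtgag
Ifit3 promoter, chr19:34583279-34583578, plus strand: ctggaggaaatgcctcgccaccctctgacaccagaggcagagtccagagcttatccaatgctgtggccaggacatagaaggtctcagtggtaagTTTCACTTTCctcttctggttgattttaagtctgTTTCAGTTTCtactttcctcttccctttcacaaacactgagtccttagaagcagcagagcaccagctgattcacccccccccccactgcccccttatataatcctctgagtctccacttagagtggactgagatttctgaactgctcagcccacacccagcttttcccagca
Oas1g promoter, chr5:120887564-120887863, minus strand: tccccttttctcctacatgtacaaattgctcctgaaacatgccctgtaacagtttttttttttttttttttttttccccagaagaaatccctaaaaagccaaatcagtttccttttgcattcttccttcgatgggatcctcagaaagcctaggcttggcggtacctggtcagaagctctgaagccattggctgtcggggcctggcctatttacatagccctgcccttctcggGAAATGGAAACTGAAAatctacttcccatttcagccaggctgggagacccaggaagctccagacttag

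Of 24 interferon and MHC genes tested, 7 fell and none rose, where 2.2% and 2.11% of all genes did. In all 14 lay below 0 and 10 above, and the median was -0.14. Usp18, the protease that removes Isg15 from proteins, measured 7.23, 6.27, 6.43 and 7.21 in GPSCs, against 9.87 and 9.45 in ES cells. No GPSC array came within 2 log2 units of an ES array, the difference was -2.88 ± 0.30 (adjusted p = 8.18e-08), and the second probe gave -3.02. Oas1g, an oligoadenylate synthetase of the antiviral RNase L pathway, measured 7.47, 7.68, 8.11 and 7.85 in GPSCs, against 10.02 and 10.24 in ES cells. Its difference was -2.35 ± 0.31 (adjusted p = 5.48e-06), with -1.59 on the other probe. Ifit3, which binds viral RNA complexes, fell by 1.48 (SE 0.30), the GTPase gene Gbp2 by 1.35 (SE 0.29) and Irf9, a transcription factor of the interferon response, by 1.12 (SE 0.28).

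Isg15, a ubiquitin-like protein, averaged 7.09 ± 0.76 in GPSCs and 8.65 ± 0.54 in ES cells (SD, n = 4 and 2), a difference of -1.56 ± 0.45 (adjusted p = 0.037). The call was lost without either ES array or without the second array of GPSC-A or of GPSC-B, and the list had 4 called members without the first ES array, 3 with the untreated arrays alone, and 4 with median scaling. Oas1g was called under each of 15 alternatives, and Usp18 and H2-Bl under the 14 in which they were tested. H2-Bl, a class I MHC gene of the H2 region, averaged 6.11 ± 0.38 in GPSCs and 9.27 ± 0.03 in ES cells (SD, n = 4 and 2), a difference of -3.16 ± 0.31. It belongs to a family of near-identical copies that differ between strains, so probes may be shared between genes. By contrast B2m, the common light chain of class I MHC, was at 0.87 (adjusted p = 0.118), H2-D1 at -0.49 and Irf1 at 0.08, none called. Bst2 was at 1.35 (adjusted p = 0.178) and Trim25 at 1.20 (adjusted p = 0.0893), above 0 and not called either.

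At day 2 the interferon and MHC list had a median of 0.12, with 6 genes called higher and 2 lower in GPSCs, where 3.67% and 1.28% of all genes were. Of the 7 genes that fell in untreated GPSCs, 3 lay above 0 at day 2. Usp18 was undetected on all 6 arrays of day 2, so its difference there carries no order. Oas1g averaged 7.93 ± 0.33 in GPSCs and 7.43 ± 0.34 in ES cells at day 2 (SD, n = 4 and 2). Its untreated and day 2 differences differed by -2.85 ± 0.44 (adjusted p = 0.000435). H2-Bl was lower at day 2 too, at -2.06 (adjusted p = 3.56e-05).

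Imprinted genes expressed from the maternal allele also held falls. Of 17 tested, 5 fell and none rose (2.2% and 2.11% over all genes), 15 lay below 0, and the median was -0.36. Of 17 genes expressed from the paternal allele none was called, 12 lay above 0, and the median was 0.35. Cdkn1c, a growth-restraining inhibitor of cyclin-dependent kinases, measured 11.71, 11.49, 11.19 and 11.28 in GPSCs, against 13.44 and 13.97 in ES cells. The groups were well apart, at -2.29 ± 0.39 (adjusted p = 0.000296). Meg3, a long noncoding RNA of the Dlk1 locus, was detected on 1 of 4 GPSC arrays and on both ES arrays, at 5.42 ± 0.58 in GPSCs and 7.30 ± 0.35 in ES cells (SD, n = 4 and 2), a difference of -1.88 ± 0.31.

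Grb10, an adaptor that damps insulin and growth factor signalling, fell by 1.53 (SE 0.28), with -0.39 on its other probe. It shares a cluster with Cobl, an actin nucleator, which averaged 7.11 ± 0.28 in GPSCs and 9.04 ± 0.65 in ES cells (SD, n = 4 and 2), with -1.93 and -1.74 on its probes. Slc22a18, an organic cation transporter, fell by 1.43 (SE 0.38). Of the paternally expressed genes, Igf2 was at 0.35 ± 0.25 (adjusted p = 0.541), Peg3 at 0.54 ± 0.27 (adjusted p = 0.333), and Dlk1, the partner of Meg3, at -0.50 ± 0.36 (adjusted p = 0.546). The maternal list kept 3 calls with the untreated arrays alone, without background correction, with median scaling and with detection on all 6 arrays; the call of Grb10 was lost without the first ES array and that of Meg3 without background correction. H19 and Snrpn had no named probe.

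In contrast to the naive genes, several of these differences were also found on the later arrays. At day 2 Meg3 differed by -3.32, Grb10 by -2.51 and Cdkn1c by -1.77, all called, while Cobl was at 0.09. Meg3 was detected on 1 of 4 GPSC arrays and on both ES arrays at day 2, so the size of its difference rests on signals mostly not above background. Cdkn1c, Meg3, Grb10 and Slc22a18 were each at least 2-fold lower in GPSCs at all 5 later times.

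**Figure D4:**
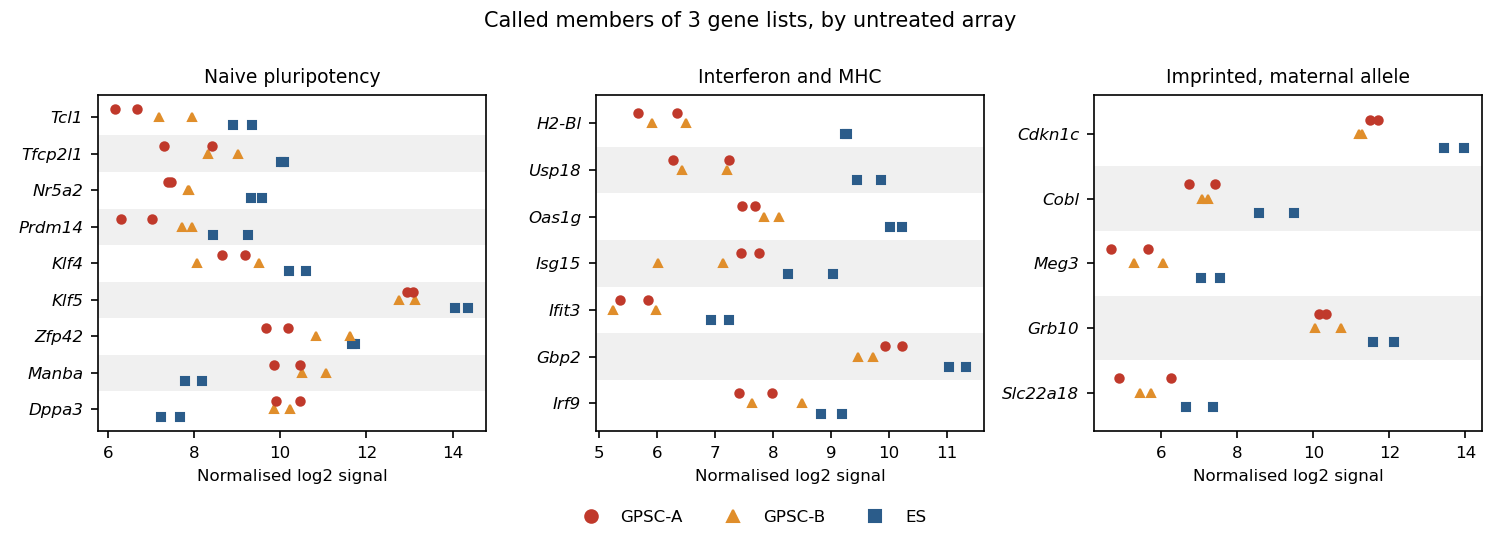
Normalised log2 signal on each untreated array (horizontal axis) for the called members of the naive pluripotency, interferon and MHC, and maternally expressed imprinted lists. Circles are GPSC-A, triangles GPSC-B and squares ES, 2 arrays each; GPSC arrays lie left of ES arrays except in Dppa3 and Manba, and one GPSC-B array of Zfp42 nearly reaches the ES arrays.

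Outside these lists the steepest fall was in Aurkc, a meiotic Aurora kinase, which was undetected on all 4 GPSC arrays and stood at 8.51 and 8.74 in ES cells. It was at least 6.66-fold lower (adjusted p = 2.36e-11). Mid1, an X-linked ubiquitin ligase of microtubules, was at least 4.58-fold lower, and Cptp, a ceramide-1-phosphate transfer protein, at least 2.91-fold lower. Both were undetected on each GPSC array. Gli2, an effector of Hedgehog signalling, measured 10.34, 10.12, 10.52 and 10.34 in GPSCs, against 12.27 and 12.11 in ES cells, and Sall3, a relative of Sall4, fell by 1.96 (SE 0.31), with 0.17 on its other probe. The other probe of Gli2 gave -0.95 and was not called. Apobec1, the mRNA-editing cytidine deaminase, fell by 2.10 (SE 0.36).

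Signalling genes were called here and there. Of 25 genes of the Nodal and BMP pathways 2 fell (8%, where 2.2% of all genes did), the ligand Bmp4 (-1.49 ± 0.37) and the BMP antagonist Nog, undetected in GPSCs and at least 1.93-fold lower. Of 26 Wnt pathway genes 2 fell (7.69%) and 1 rose (3.85%): the feedback inhibitors Notum (-1.77 ± 0.40) and Axin2 (-1.52 ± 0.39), and the secreted antagonist Sfrp1 (1.26 ± 0.35). Other probes gave -0.78 for Bmp4 and -0.37, the opposite sign, for Sfrp1, neither called. For Notum the other probe gave -1.30 and was called. Bmp4, Notum and Sfrp1 were not called without the second ES array, nor Axin2 without the first, nor Nog without either. Bmp4, Sfrp1 and Axin2 were also lost without the second array of either lot, and Nog without any GPSC array but the second of GPSC-A. With the untreated arrays alone neither list held a call. Of 17 genes induced by FGF and Erk, and of 27 of polycomb and chromatin, none was called.

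Genes of the two-cell-like state, which a small share of ES cells enters at any time, moved both ways. Of 8 tested, 3 fell and 1 rose, where 2.2% and 2.11% of all genes did, with a median of -0.85. Zscan4c measured 11.10, 11.17, 11.16 and 11.86 in GPSCs, against 12.96 and 12.45 in ES cells, and Tmem92 fell by 1.85 (SE 0.25), with -1.73 on its other probe. Tcstv3 was undetected in GPSCs and at least 1.86-fold lower, whereas its relative Tcstv1 rose by 1.52 (SE 0.26). Zscan4c and the Tcstv genes belong to families of near-identical copies. Zscan4c lost its call without the first ES array and Tcstv3 without the second, and a fall in the fraction of such cells cannot be told apart from less RNA per cell in bulk samples.

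Of 24 germ cell genes tested, 1 rose and 2 fell (4.17% and 8.33%, where 2.11% and 2.2% of all genes did), with a median of 0.07 that became -0.11 with median scaling. Piwil2, a Piwi protein of transposon silencing, measured 7.11 and 7.41 on the GPSC-B arrays, 6.64 and 5.92 on those of GPSC-A, and was undetected on both ES arrays. It was at least 1.94-fold higher (adjusted p = 7.23e-07), and was not called in the authors' processed values or without background correction. Kit, the stem cell factor receptor, averaged 9.82 ± 0.55 in GPSCs and 11.29 ± 0.78 in ES cells (SD, n = 4 and 2), a fall of 1.48 (SE 0.39). Without the first ES array it was at -0.92 and not called, nor was it without the second array of either lot. Of 8 meiosis genes none was called.

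Most fibroblast and feeder genes lay above 0. That was so for 30 of 34 tested, with a median of 0.49, and 2 rose (5.88%, where 2.11% of all genes did): Cxcl12, a chemokine (1.56 ± 0.42), and Col6a1, a collagen (1.38 ± 0.32). Over the 10 defining markers of feeders or fibroblasts, of which 9 had a probe, summed linear signals were 40492 to 50132 in GPSCs and 41362 to 43806 in ES cells. Most of that sum is Acta2, at 15.06 to 15.33 in GPSCs and 15.16 in ES cells. Col1a2 was at 5.64 to 6.52 in GPSCs, detected on 2 arrays, and at 5.05 to 5.26 in ES cells, undetected. The ranges of Col1a1, Lox and Tagln overlapped. Col3a1, Lum and Postn were undetected on every untreated array, and Thy1 was at 10.96 to 11.69 in GPSCs and 10.73 to 10.79 in ES cells. The part of such cells in the differences was not tested. Neither gene was called without the first ES or the second GPSC-B array, with median scaling, or with the untreated arrays alone, and Cxcl12 was also lost without the second ES or the second GPSC-A array.

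Among epithelial genes 3 of 20 rose (2.11% over all genes), with a median of 0.24: Rab25, a small GTPase (1.94 ± 0.40 and 1.79 on its other probe), Cldn6, a tight junction protein also known as an epiblast marker (1.23 ± 0.37), and Ap1m2, a sorting adaptor (1.07 ± 0.32). Rab25 and Ap1m2 were not called without the first ES array, where they stood at 1.24 and 0.53, nor Cldn6 without either ES array. Ap1m2 was also lost without any GPSC array but the first of GPSC-A, and Cldn6 without any but the second of GPSC-B. None of the list was called with median scaling or with the untreated arrays alone. Cdh1, E-cadherin, was at 1.03 ± 0.31 with an adjusted p of 0.0544.

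Few genes differed between the lots. Against the same ES arrays, 239 genes were called in GPSC-B (2.8%, with 1.61% higher and 1.18% lower) and 350 in GPSC-A (4.1%, with 1.88% higher and 2.21% lower). In each lot alone 164 were called the same way (1.92%), 94 of them higher (1.1%) and 70 lower (0.819%). GPSC-B and GPSC-A differed from each other in 17 genes (10 higher and 7 lower in GPSC-B, which is 0.117% and 0.0819%, or 0.199% together), with 401 genes under an unadjusted p of 0.05. Leaving out the second GPSC-A array cut the GPSC-A count to 153 and the count between lots to 6. Leaving out the first ES array gave 221 in GPSC-A, and leaving out the second ES array or the second GPSC-B array gave 144 and 108 in GPSC-B.

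Some of these genes were close to the ES level in one lot. Trim25, a ubiquitin ligase of RNA virus sensing, measured 8.88 and 9.94 in GPSC-B and 5.76 and 6.82 in GPSC-A, beside 6.56 and 6.75 in ES cells. GPSC-B exceeded GPSC-A by 3.12 ± 0.47 (adjusted p = 0.000413). Apoa2, an apolipoprotein of HDL, ran the other way, at 5.29 and 4.93 in GPSC-B and 8.34 and 8.63 in GPSC-A, beside 5.13 and 4.95 in ES cells. It was undetected in GPSC-B and in ES cells. Pkm, pyruvate kinase, was above ES by 0.69 in GPSC-B and by 2.57 in GPSC-A, though the difference between lots was not called. Its other probe gave 0.24 over both lots and was not called. Zfp42 stood at -0.47 against ES in GPSC-B and at -1.78 in GPSC-A, also without a call between the lots.

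Rises in untreated GPSCs were mostly found again on other arrays of the same sources, and falls mostly were not. At day 2, where 3.67% of all genes were called higher and 1.28% lower, 121 of the 180 rises were called higher (67.2%) and 1 lower, while 35 of the 188 falls were called lower (18.6%) and 6 higher. The median of the rises was 1.60 untreated, 1.66 at day 2, 1.57 at day 7, 1.43 at day 14, 1.18 at day 21 and 1.16 at day 28. The median of the falls was -1.35 untreated, -0.27 at day 2, -0.18 at day 7, -0.33 at day 14, -0.23 at day 21 and -0.34 at day 28. Untreated values chose the genes, so only the later ones are a second measurement.

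**Figure D5:**
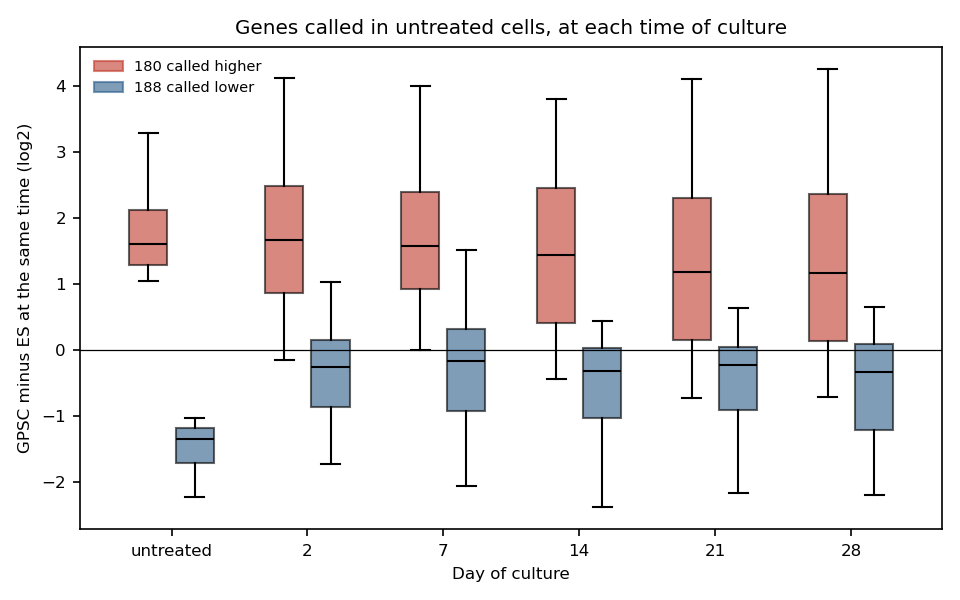
Difference between GPSCs and ES cells of the same time (vertical axis, log2) for genes called in untreated cells, by day of culture (horizontal axis, days in order but not to scale). Boxes give the quartiles with the median as a line and whiskers the 5th and 95th percentiles over 180 rises (red) and 188 falls (blue); the medians of the rises stay between 1.16 and 1.66, and those of the falls lie between -0.18 and -0.34 after day 0.

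At all 5 later times 80 of the 180 rises (44.4%) were at least 2-fold higher in GPSCs, as were 1.18% of all genes, and 17 of the 188 falls (9.04%) were at least 2-fold lower, as were 0.269% of all genes. Thumpd1 differed by 6.28 at day 2, and its smallest difference at any time was the untreated 4.49. Rpl29 differed by 3.49 untreated, 3.89 at day 2 and 6.09 at day 28. Rae1 stayed between 2.92 and 3.48 and Strap between 2.89 and 4.11 over the 6 times. Dppa3, in contrast, had a lowest value of -0.18. Among the falls H2-Bl stayed between -3.16 and -2.06 over the 6 times, Grb10 between -6.09 and -1.53 and Cdkn1c between -6.71 and -1.77. Both imprinted genes lay furthest apart at day 7.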

How the data were processed

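RNA of 42 samples in 20 groups was hybridised to Illumina mouse BeadChips after cRNA amplification, per the labels' protocols. The deposited table holds the scanner signal intensity and a detection p-value for each of 45281 probes on each array, without normalization, per the file headers; the submitters' processing notes name GenomeStudio without a version. The authors' processed values, a second deposited table of intensity on a linear scale made by a method that the sources used here do not state, served as an alternative. Array medians of that table were nearly equal.

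Signals were background-corrected by way of the detection p-values, then quantile-normalised and put on the log2 scale with neqc of limma 3.58.1 in R 4.3.3 (offset 16). Probes detected at p under 0.01 on at least 2 of the 6 untreated arrays were kept (14327), and the probe with the highest mean over those arrays stood for each of 8546 genes. Gene names came from the platform annotation. A linear model over all 42 arrays (22 residual degrees of freedom) gave each contrast, with limma's moderated test and Benjamini-Hochberg adjustment over all genes. The contrast of GPSCs with ES cells gives both lots equal weight. For a gene undetected on every array of one group, a lower bound is given from the lowest detected signal of each array. The number of arrays limits precision. On simulated data for GPSCs against ES cells with 8546 genes, 72 of 100 changes of 1.5 and 98 of 100 of 2.5 (log2) were recovered, with 6 unchanged genes called. The simulated noise was normal and independent between arrays, with a single SD per gene over all groups. It held no effect shared by arrays, so these counts do not cover such effects in the real data. Figures were drawn with matplotlib 3.10.9.

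The genes and lists were chosen with earlier results of these data known. Named were the 12 largest changes each way among genes detected on all 6 arrays, the 8 largest bounds each way, up to 4 called members of each list by size, 26 anchor genes, and the 6 largest differences each way between lots; further members of the naive, interferon and imprinted lists, and the genes whose later values are given, were named after their values were seen. Alternatives changed the normalization, background correction, offset, detection filter, chosen probe, samples in the fit, replicate block and single arrays. Promoters came from RefSeq (GRCm38.p6).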

Additional observations from a re-analysis of the deposited data

Results flagged for a closer look

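Between the lots, 8 of the named genes called against ES cells differed by a test of GPSC-B against GPSC-A itself (limma, 2 arrays each). Apoa2 differed by -3.38, Pip4p1 by -2.80, Fbxo34 by -2.30 and Mfap3 by -1.73 on the log2 scale, all lower in GPSC-B. Zfp365 differed by 2.35, Mmrn2 by 1.94, Zfp459 by 1.58 and Sult6b1 by 1.27, all higher in GPSC-B. Fbxo34 measured 8.35 and 8.74 in GPSC-B and 11.25 and 10.45 in GPSC-A, beside 8.38 and 8.02 in ES cells. Apoa2 was undetected in GPSC-B, Pip4p1 was undetected on the first GPSC-B array, and Mmrn2, Zfp459 and Sult6b1 were undetected in GPSC-A. For these genes the fitted value is not a bound on the difference.

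Genes called in untreated cells were looked at here only within the naive, LIF and Stat3, interferon and maternally expressed lists. In 10 of them the difference between GPSCs and ES cells was not the same untreated and at day 2. The test set the 2 contrasts against each other (limma). The untreated arrays that chose these genes also enter this test, so its calls are not independent of that choice. Of all 368 called genes, 53 had such a difference called. The untreated minus day 2 value was -4.16 for Tfcp2l1, -4.05 for Tcl1, -3.08 for Prdm14, -2.80 for Klf4, -2.64 for Zfp42, -2.59 for Nr5a2 and -2.01 for Klf5, all naive pluripotency genes. It was -2.85 for Oas1g and -2.71 for Usp18, of the interferon list, and -2.02 for Cobl. Usp18 was undetected on all arrays of day 2. Tfcp2l1, Tcl1, Prdm14, Klf4 and Cobl were each detected on 1 of the 2 ES arrays of that day. Genes named outside these lists differed between the 2 contrasts too, among them Aurkc (-2.69), Mmrn2 (-2.51) and Thumpd1 (-1.78), and Cxcl12 the other way (2.87). Over all genes tested, 89 (1.04%) were called in the direction of Aurkc and 11 (0.129%) in that of Cxcl12.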

How the results depend on the processing

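The 368 called genes of GPSCs against ES cells became 183 with the authors' processed values, 165 without background correction, 133 with median scaling, 164 with detection on all 6 untreated arrays, 121 with the untreated arrays alone, 164 when each lot alone had to pass, and 247 to 397 leaving out an array. GPSC-A against ES (350) gave 228, 204, 130, 146 and 109 under the first 5 of these, and 153 to 356. GPSC-B against ES (239) gave 156 without background correction, 103 with median scaling (77 higher and 26 lower, against 138 and 101), 99 with detection on all 6 arrays, 76 with the untreated arrays alone, and 108 to 252. GPSC-B against GPSC-A (17) gave 10 with median scaling (7 higher and 3 lower, against 10 and 7), 3 with detection on all 6 arrays or the untreated arrays alone, and 6 to 20; its split was 10 and 12 with the authors' values, 7 and 12 without background correction and 12 and 13 with an offset of 50. Calls found again at day 2 (156) numbered 91 with the authors' values, 87 without background correction, 73 with median scaling (67 higher and 6 lower, against 121 and 35), 76 with detection on all 6 arrays, 103 with untreated and day 2 arrays alone, and 115 to 158. The causes were not tested, beyond fewer genes or arrays where the alternative leaves them out.

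Median scaling moved the median of all genes by -0.11 (0.09 in GPSC-B, -0.31 in GPSC-A). Of 85 called named genes 37 kept the call under every alternative in which they were tested, and none changed sign. Sign changes occurred in genes that were not called: Nanog ranged from -0.92 to 0.16 leaving out an array, Ddx4 from -0.004 to 0.30, Igf2 from -0.14 to 0.84, Acta2 from -0.0564 to 0.0785, Cep55 from -0.0651 to 0.11 and Stxbp4 from -0.33 to 0.38; Acta2 was at -3e-04 with the authors' values and Cep55 at -0.0108 with median scaling.

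With the replicate block 469 genes were called, among them the 368, and 516, 336, 25 and 180 in the other counts above. Replicate differences correlated at 0.29 between ES and GPSC-A, -0.06 between ES and GPSC-B and 0.42 between the lots. The main fit did not pair samples by replicate number. What lies behind these correlations was not tested. A slide block was not run, since the headers used here name no slide.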
